A study of Mus musculus with 4 samples.

Results

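The T early alpha promoter (TEA) was used as the viewpoint of 4 of the 16 libraries of this 4C-seq series, 2 from double-negative (DN) thymocytes and 2 from naive B cells of the spleen (B). The DN thymocytes came from C57BL/6 Rag2-/- mice aged 3 weeks, with the thymi of litters as the stated source, and the B cells from wild type C57BL/6 mice, of unstated age. Genotype, tissue and cell type therefore differ together between the groups. How the B cells were isolated is also not given, because the protocol text of the B samples describes thymocytes. The assay reads DNA, so the identity of the cells could not be checked against marker genes. The members were the 4 libraries whose deposited values belong to single samples with TEA as the viewpoint. The other 12 libraries start from 3 other fragments of the same locus, INT1, INT2 and the Tcrd enhancer (Ed).

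In 4C-seq, crosslinked chromatin is cut and religated, and an inverse PCR from a chosen fragment reads which other fragments had been ligated to it. TEA lies in front of the Jα segments of Tcra and starts the germline transcription that precedes V-to-J joining at this gene. Tcrd is nested inside Tcra, so the same stretch of chromosome 14 serves the γδ and the αβ T cell lineage, and the contacts of TEA with the V segments matter for which V segments can be joined. Rag2 is a subunit of the recombinase, so the locus stays in germline order in the DN cells used here, and B cells do not rearrange it. The comparison of DN with B asks what the contacts of TEA look like where the locus is being prepared for recombination and where it is not.

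The viewpoint fragment was the HindIII fragment at chr14:54769627-54773311 (build mm9). It was left out of every sum, with 1 fragment on each side, at chr14:54769473-54769620 and chr14:54773318-54777677. Toward lower coordinates lie Ed at chr14:54763263-54765182, 7.25 kb away, INT2 at chr14:54680988-54683873, 89.0 kb away, and INT1 at chr14:54677060-54677623, 94.1 kb away. In the gene order of the GRCm38 table, this lower-coordinate side holds Trdc, the Trdj and Trdd segments and then the Trav array. The higher-coordinate side holds the Traj segments, Trac and the housekeeping gene Dad1. No gene was assigned to a single fragment, because that table is of another build.

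The value of 1 read gave 2037531 mapped reads for DN replicate 1, 9988342 for DN replicate 2, 11434923 for B replicate 1 and 17287420 for B replicate 2. Chromosome 14 outside the 3 fragments left out held 14.6% and 28.8% of the deposited signal in DN and 6.82% and 6.97% in B, or between 296770 and 2851909 reads. These chromosome 14 totals are the denominator of the shares below. A count of 0 allows up to 3 reads, which in RPM of chromosome 14 is 10.1 and 1.05 for the DN and 3.84 and 2.48 for the B libraries. Reads from a PCR are not separate molecules, so these floors cover counting error only. The 2 B libraries share 1 sequencing folder and each DN library has its own, so folder and cell type cannot be told apart. The labels do not say whether replicates are separate animals or litters, and p-values measure the spread between these samples only.

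From 20 kb outward contact trended down with distance on both sides of TEA in both cell types, though not at every step. In DN it started there from a higher level and fell further. The nearest bands, from 10 to 20 kb, did not pass in limma. The lower one held 2.21% and 2.62% in DN and 1.79% and 1.35% in B. The higher one held 0.427% and 0.225% against 0.225% and 0.313%. On the lower side the DN signal per kb rose from this band to the next, from 322 and 747 RPM to 410 and 994 RPM. Between 20 and 50 kb on the lower side, the 14 fragments there held 8.44% and 10.4% of chromosome 14 in DN and 1.36% and 1.02% in B. The next band, from 50 to 100 kb, held 10.3% and 16.3% in DN and 3.11% and 3.12% in B. From 100 to 200 kb the shares were 4.37% and 5.68% against 1.05% and 1.51%. The DN values were above the B values in each of the 3 lower bands from 20 to 200 kb, and the ratio of the DN mean to the B mean was widest in the band from 20 to 50 kb. Farther out, the lower side held 5.12% and 8.86% in DN against 1.64% and 1.88% in B from 200 to 500 kb, and 2.94% and 5.04% against 1.07% and 1.54% from 500 kb to 1 Mb. The band from 1 to 2 Mb still held 3.04% and 4.24% in DN and 1.10% and 1.55% in B. Beyond 2 Mb the order turned, and the band from 2 to 5 Mb held 1.05% and 0.559% in DN and 2.29% and 2.12% in B.

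The higher side, toward Trac and Dad1, turned closer to TEA. From 20 to 50 kb it held 0.995% and 1.22% in DN and 0.471% and 0.562% in B, and from 50 to 100 kb 2.55% and 3.58% against 1.07% and 0.742%. From 100 to 200 kb the groups overlapped, with 0.697% and 2.48% in DN and 0.664% and 0.956% in B. From 200 to 500 kb DN was above B again, at 2.47% and 5.26% against 1.67% and 1.86%. From 500 kb to 1 Mb both DN libraries were below both B libraries, at 1.09% and 1.74% against 2.24% and 2.18%, where on the lower side they were above.

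In limma, on log2 of the shares with a pseudocount of 1 RPM, 19 of 24 distance bands differed between DN and B (79.2%), 9 higher in DN (37.5%) and 10 lower (41.7%), at a Benjamini-Hochberg adjusted p under 0.05. The 9 higher bands were 6 on the lower side, from 20 kb to 2 Mb, and 3 on the higher side, from 20 to 100 kb and from 200 to 500 kb. The log2 change was 2.99 (SE 0.51, adjusted p 8.62e-06), or 7.95-fold, for the lower band from 20 to 50 kb. It was 2.06 (SE 0.59, adjusted p 0.00373) for 50 to 100 kb and 1.46 (SE 0.47, adjusted p 0.00698) for 1 to 2 Mb on that side. On the higher side it was 1.76 (SE 0.46, adjusted p 0.00169) for 50 to 100 kb, and -0.68 (SE 0.47, adjusted p 0.174) for 500 kb to 1 Mb, where the interval from -1.62 to 0.26 includes 0. The 10 lower bands were all those beyond 2 Mb on either side, with changes between -1.85 and -1.26. limma took the bands of a library as independent although they share a denominator, so these p-values are too small. The SEs were pooled over the 24 bands along a trend of variance on level. These SEs and p-values therefore do not measure the spread of a single band. The higher band from 100 to 200 kb had an SE of 0.46, with DN at 0.697% and 2.48%. Without B replicate 1 or B replicate 2 no band passed, with 2 and 3 bands at an unadjusted p under 0.05, since the spread then rests on the 2 DN libraries.

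Part of each share depends on how much of the rest of chromosome 14 was read. Reads spread at the density of the other autosomes would make up 26.7% and 11.8% of chromosome 14 in DN and 63.6% and 62.2% in B. With all chromosomes as the denominator the median band moved by 1.58 on the log2 scale, and 10 bands were higher in DN and 0 lower. With the signal within 1 Mb as the denominator it moved by -1.64, and 1 band was higher and 15 lower. With the excess over other chromosomes, or with TMM factors, 1 band was higher and 12 lower. The lower band from 20 to 50 kb was the 1 higher band in the last 3 settings, at log2 changes of 1.36, 1.88 and 1.57. The lower bands from 50 to 500 kb and the higher band from 50 to 100 kb stayed above 0 in all 4 settings without passing in the last 3. The lower bands from 500 kb to 2 Mb and the higher bands from 20 to 50 kb and 200 to 500 kb went below 0 with the signal within 1 Mb as denominator.

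Set against the density of the other autosomes in the same library, the far bands of DN did not lie below those of B as a group. Between 20 and 50 kb on the lower side the density was 1286-fold and 3603-fold that of other autosomes in DN and 87.4-fold and 66.9-fold in B. From 1 to 2 Mb it was 13.9-fold and 43.9-fold in DN against 2.11-fold and 3.05-fold in B. From 2 to 5 Mb it was 1.60-fold and 1.93-fold in DN and 1.46-fold and 1.39-fold in B. The drop of the lower side between these last 2 bands was steep in DN and small in B. On the higher side the density from 1 to 2 Mb was 3.62-fold and 13.1-fold in DN and 2.52-fold and 2.77-fold in B, and from 2 to 5 Mb 1.70-fold and 2.33-fold against 1.32-fold and 1.56-fold. DN replicate 2 stood above DN replicate 1 in each of these values, so the 2 DN libraries differ in size of excess and have the same order against B.

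**Figure D1:**
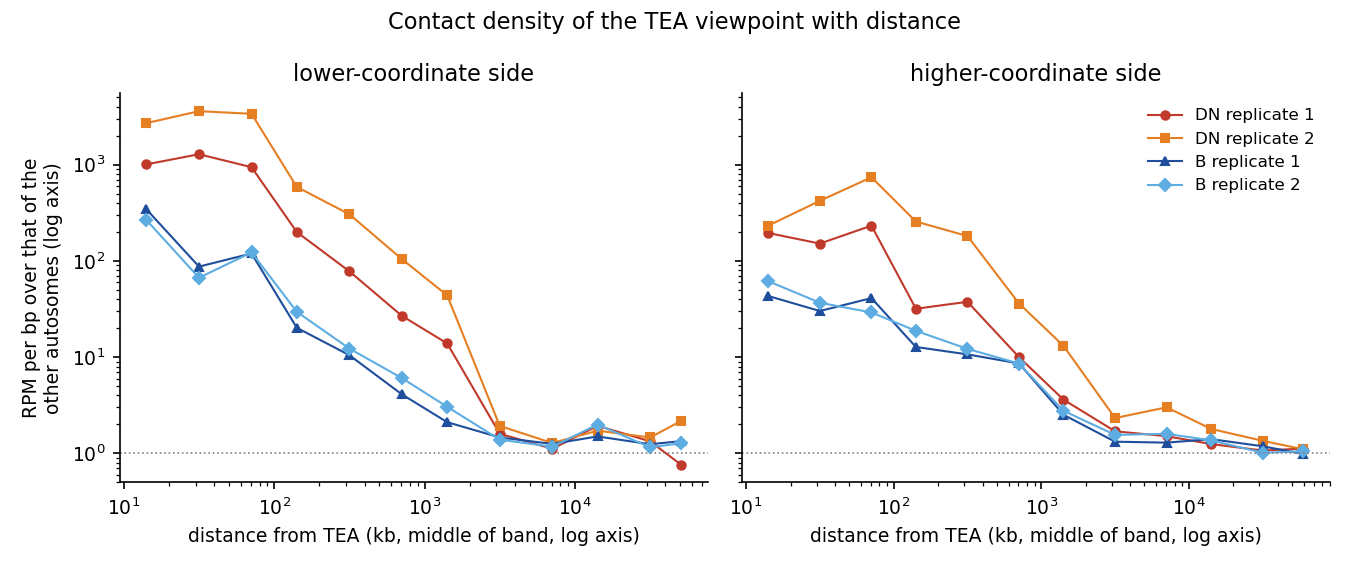
Signal per base pair of the TEA libraries (vertical, log axis), divided by that of the other autosomes in the same library, against the distance from TEA in kb (horizontal, log axis), for the lower-coordinate and the higher-coordinate side. Each line is 1 library and each point 1 distance band. On the lower side both DN libraries stay above both B libraries up to the band from 1 to 2 Mb and meet them from 2 to 5 Mb, at 1.60 and 1.93 against 1.46 and 1.39.

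The decay was summarised by the slope of log10 signal per kb on log10 distance. Between 20 kb and 1 Mb the slope on the lower side was -1.32 and -1.22 in DN and -1.10 and -0.917 in B. On the higher side it was -0.934 and -0.821 in DN and -0.494 and -0.490 in B. Between 1 and 50 Mb the slopes were -0.594 and -0.910 in DN and -0.136 and -0.210 in B on the lower side, and -0.357 and -0.626 against -0.190 and -0.278 on the higher side. In all 4 cases both DN slopes were steeper than both B slopes. The exact permutation test (two-sided) gave p = 0.333 for each, which is the smallest p that 2 libraries against 2 can give. With the density of other chromosomes subtracted, the far slopes on the higher side overlapped, at -1.07 and -0.986 in DN and -0.522 and -1.28 in B. With each captured fragment counted once, the near slope on the lower side was flatter in DN, at -0.150 and -0.112 against -0.350 and -0.324 in B. On this side 12 and 12 of 14 fragments were captured in DN from 20 to 50 kb and 119 and 137 of 164 from 500 kb to 1 Mb.

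Captured fragments, those with any read, show how far this reached. Within 4 Mb, fragments were counted in 200 kb windows without the 10 kb around TEA. On the lower side, between 1.2 and 1.4 Mb from TEA, 42 and 49 of 63 fragments were captured in DN and 16 and 25 in B. Between 1.4 and 1.6 Mb the counts were 22 and 29 of 53 in DN and 19 and 10 in B. In the next window, from 1.6 to 1.8 Mb, they were 22 and 20 of 68 in DN and 12 and 19 in B, so the captured share of DN fell to the range seen farther out. On the higher side 46 and 46 of 57 fragments were captured in DN between 400 and 600 kb and 35 and 40 in B, but between 600 and 800 kb 25 and 37 of 51 were captured in DN and 26 and 29 in B.

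Over the 40 windows both DN libraries had more captured fragments than both B libraries in 14 (35%) and fewer in 9 (22.5%). All 8 windows within 1.6 Mb on the lower side and all 3 within 600 kb on the higher side were among the 14. Beyond these limits, which were set after the values were seen, 2 of 12 windows on the lower side and 1 of 17 on the higher side were above, and 3 and 6 were below. The 2 on the lower side adjoin the 8, so the run of windows above in captured fragments was unbroken to 2 Mb. The groups were closer in them, at 22 and 20 of 68 in DN against 12 and 19 in B from 1.6 to 1.8 Mb. From 1.8 to 2 Mb the counts were 17 and 21 of 64 against 15 and 16. By share of signal the groups overlapped from 1.6 to 1.8 Mb, at 0.155% and 0.0875% in DN and 0.247% and 0.146% in B. From 1.8 to 2 Mb DN was above B by share, at 0.152% and 0.279% against 0.0916% and 0.0741%. The stretch with more captured fragments in DN was thus longer on the side of the Trav array than on the side of Dad1. From 800 kb to 1.4 Mb on the lower side, 46 of 59, 24 of 67 and 36 of 63 fragments per window carry repeated values. The windows were not recounted without such fragments, which are described below. DN replicate 1 is the library of lowest depth and captured more chromosome 14 fragments, 5531, than DN replicate 2, with 4254, against 6280 and 7487 in B.

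**Figure D2:**
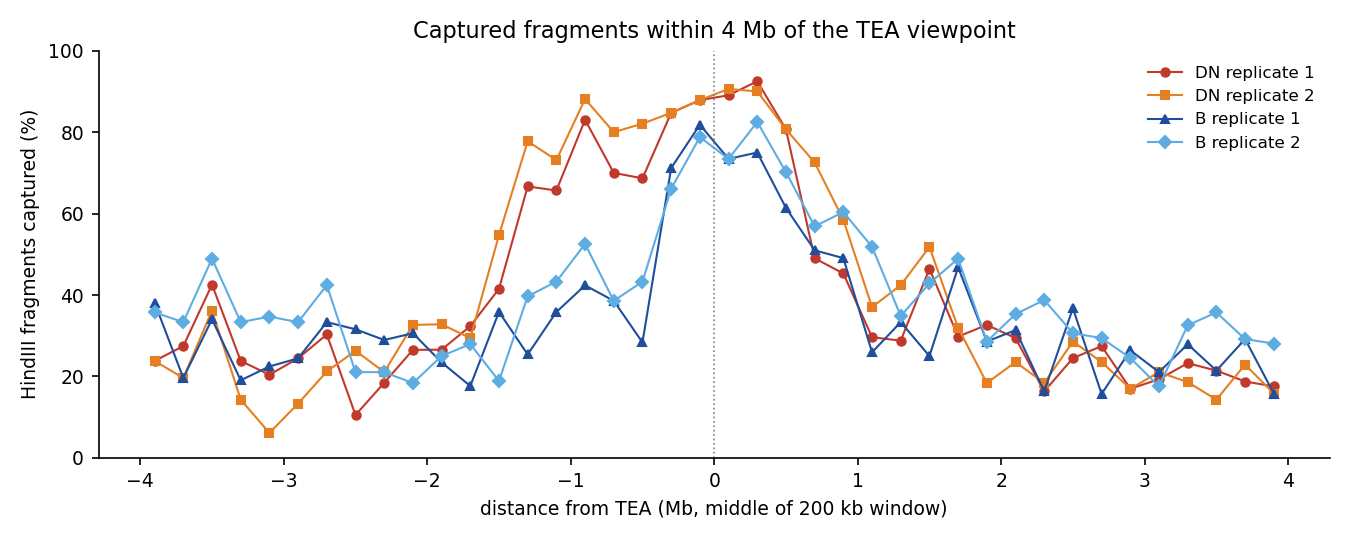
Percentage of HindIII fragments with any read (vertical) in 200 kb windows up to 4 Mb on either side of TEA (horizontal, Mb, negative toward the Trav array), 1 line per library. Both DN libraries lie above both B libraries in all 8 windows within 1.6 Mb on the lower side and in the 3 windows within 600 kb on the higher side. They also do so, by less, in the 2 lower windows from 1.6 to 2 Mb.

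Fragments of the V array are not all distinct in these files. In C57BL/6 mice part of the Trav array is present in repeated copies. Of 641 fragments within 2 Mb on the lower side, 134 carried, in all 4 libraries, the same value as at least 1 other fragment of like length (within 5%), and of 540 within 2 Mb on the higher side 0 did. Of the 134, 131 formed 62 sets that lie wholly in this stretch, 55 of 2 and 7 of 3 fragments, between 419 and 1466 kb from TEA, and 3 shared their value with fragments outside it. The fragments at chr14:53886169-53887234 and chr14:54267655-54268698, of 1066 and 1044 bp, both held 117 and 599 RPM in DN and 0 and 13.0 RPM in B. The sources used here do not give how reads that match several copies were counted, and a value in such a set cannot be given to 1 copy. These fragments held 21.1% and 24.8% of the signal between 100 kb and 2 Mb on the lower side in DN and 22.8% and 23.8% in B.

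With these repeated fragments left out, an alternative chosen after the data were seen, 9 bands were still higher and 10 lower in DN. The lower band from 1 to 2 Mb then stood at 1.19 (limma adjusted p 0.0286) in place of 1.46. Of the regions described next, that from 1 to 1.8 Mb on the lower side no longer passed, at 1.17 (limma adjusted p 0.0533), so that 3 regions were higher and 3 lower in DN. The captured windows that hold most copies are those from 800 kb to 1 Mb, with 46 of 59 fragments, and from 1.2 to 1.4 Mb, with 36 of 63. The windows from 400 to 600 kb and from 600 to 800 kb hold few, 7 of 67 and 14 of 70. In these 2 windows 46 and 55 and 49 and 56 fragments were captured in DN, and 19 and 29 and 27 and 27 in B.

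The stretch was then divided into 9 regions to ask which parts took up the signal. From INT2 up to TEA, which spans the Tcrd D, J and C segments, the 31 fragments held 40.9% and 41.1% of chromosome 14 in DN and 11.1% and 11.1% in B, or 41.0% ± 0.127 against 11.1% ± 0.00671 (SD, n = 2). From INT1 to 1 Mb the lower side held 13.1% and 20.9% in DN and 4.12% and 5.10% in B, and from 1 to 1.8 Mb 2.89% and 3.96% against 1.01% and 1.48%. On the higher side the first 100 kb held 4.67% and 5.51% in DN and 1.91% and 1.82% in B. Between 100 kb and 1 Mb the groups overlapped, at 4.26% and 9.48% against 4.57% and 5.0%. Between 1 and 2.2 Mb DN held 0.958% and 1.35% and B 1.57% and 1.71%.

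Of the 9 regions 6 passed in limma (66.7%), 4 higher in DN (44.4%) and 2 lower (22.2%). The log2 change was 1.88 (SE 0.02, adjusted p 8.89e-05) from INT2 to TEA, 1.44 (SE 0.14, adjusted p 0.0147) for the first 100 kb of the higher side, 1.85 (SE 0.33, adjusted p 0.0374) from INT1 to 1 Mb and 1.47 (SE 0.32, adjusted p 0.0374) from 1 to 1.8 Mb. The lower side from 1.8 to 5 Mb had -1.19 (SE 0.24) and the higher side beyond 2.2 Mb -1.63 (SE 0.35), both at an adjusted p of 0.0374. The lower side beyond 5 Mb missed the threshold at -1.67 (SE 0.47, adjusted p 0.0576). With the signal within 1 Mb as the denominator 0 regions were higher and 5 lower, and the change was 0.25 from INT2 to TEA, 0.21 from INT1 to 1 Mb, -0.19 for the first 100 kb of the higher side and -0.17 from 1 to 1.8 Mb. With all chromosomes as the denominator 4 were higher and 0 lower.

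In the region from INT2 to TEA 1 fragment weighs heavily. The fragment at chr14:54768785-54769466, 2.34 kb from the middle of the viewpoint and next to those left out, held 41.0% and 27.3% of the region's signal in DN and 36.2% and 40.9% in B. Without the 10 kb around TEA the region held 20.2% and 28.0% in DN and 5.86% and 5.25% in B, a log2 change of 2.10 (SE 0.52, limma adjusted p 0.00453). The closeness of the 2 DN libraries in this region was therefore lost without those 10 kb. The SE of 0.52 also holds spread shared over the regions, which changed in this setting. The lower side from 1.8 to 5 Mb kept its values, yet its SE went from 0.24 to 0.35 and its limma adjusted p from 0.0374 to 0.0057. In this setting 7 regions passed in place of 6. From INT2 to TEA 24 of 31 fragments (77.4%) had both DN libraries above both B libraries, and 0 had both below. On the first 100 kb of the higher side this was so for 28 of 38 (73.7%), and from INT1 to 1 Mb for 162 of 294 (55.1%). From 100 kb to 1 Mb on the higher side it was 56 of 230 (24.3%), where 20 had both DN libraries below. Farther out on the lower side it was 65 of 251 (25.9%) from 1 to 1.8 Mb, with 5 below, and 17 of 730 (2.33%) from 1.8 to 5 Mb, with 52 below. From 1 to 2.2 Mb on the higher side it was 15 of 323 (4.64%), with 32 below. Over all fragments from 10 kb to 1 Mb it was 265 of 586 (45.2%), with 21 (3.58%) below. Repeated fragments, 67 of the 294 and 66 of the 251, were each counted here although they share values.

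**Figure D3:**
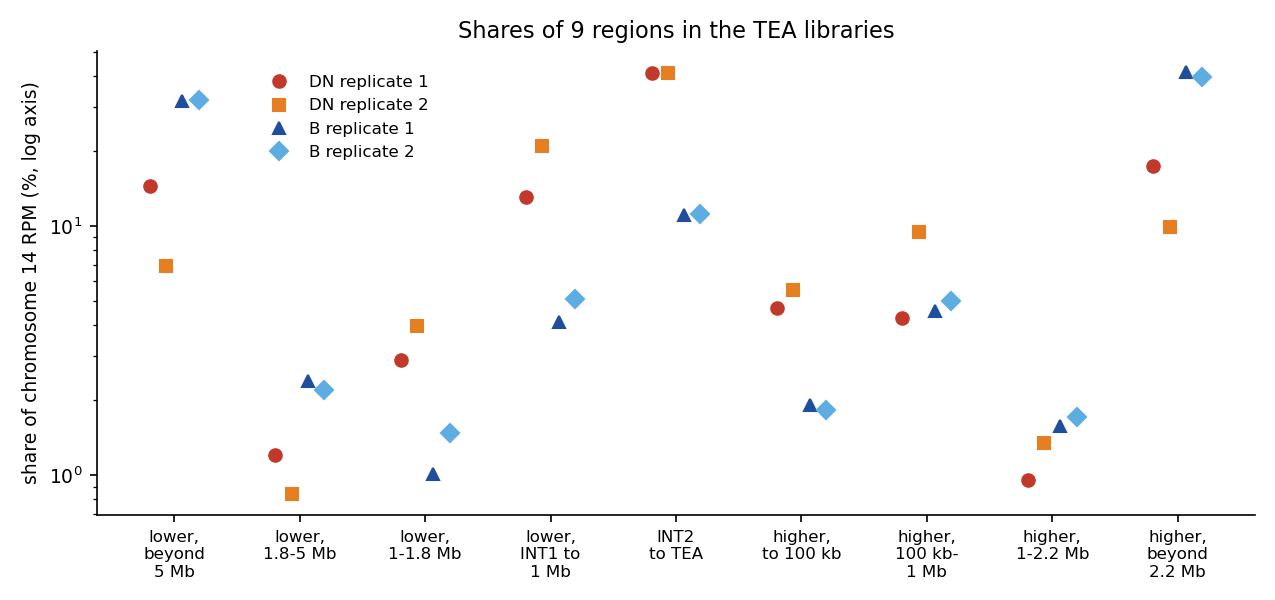
Share of the chromosome 14 signal (vertical, percent, log axis) of 9 regions ordered by position from the lower-coordinate end to the higher-coordinate end, 1 point per library. From INT2 to TEA the DN libraries sit at 40.9% and 41.1% and the B libraries at 11.1% and 11.1%, and at both outer ends the B libraries are above the DN libraries.

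The 2 sides were compared within each library, which needs no denominator. Between 500 kb and 1 Mb the lower side held 2.69 and 2.89 times the signal of the higher side in DN and 0.477 and 0.707 times in B. Between 1 and 2 Mb the ratio was 3.84 and 3.35 in DN and 0.837 and 1.10 in B. Between 20 and 50 kb it was 8.49 and 8.53 in DN and 2.89 and 1.82 in B, and between 100 and 200 kb 6.27 and 2.29 against 1.58 and 1.58. In these 4 bands the balance leaned to the lower side more in DN than in B, beyond the range of either group. From 200 to 500 kb it did so too, at 2.07 and 1.69 in DN and 0.981 and 1.01 in B. That band did not pass in limma (0.91, SE 0.45, adjusted p 0.129).

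In limma 4 of 12 bands (33.3%) differed in side balance and all 4 leaned to the lower side in DN. The log2 difference was 2.26 (SE 0.45, adjusted p 0.000453) between 500 kb and 1 Mb, 1.90 (SE 0.45, adjusted p 0.00124) between 1 and 2 Mb, 1.89 (SE 0.45, adjusted p 0.00124) between 20 and 50 kb and 1.26 (SE 0.45, adjusted p 0.0293) between 100 and 200 kb. The last of these did not pass in limma with a trend of variance on level (adjusted p 0.0599), with the replicate number as a block (0.0809) or with repeated fragments left out (0.0861). That band holds 0 repeated fragments on either side. limma gave all 12 bands the same SE of 0.45, pooled over the bands, and took the bands of a library as independent. These p-values therefore do not measure the spread of a single band. In the band from 100 to 200 kb the DN values had an SD of 1.03 on the log2 scale. From 50 to 100 kb the ratios overlapped, at 4.05 and 4.57 in DN and 2.91 and 4.21 in B. Beyond 2 Mb the ratios of the 2 groups overlapped in all 5 bands. Without any 1 of the 4 libraries 0 of 12 bands passed in limma, with 3 to 6 at an unadjusted p under 0.05. Counting every captured fragment as 1 gave 6 bands that passed, 3 on either side, and the bands from 20 to 50 kb and 100 to 200 kb turned to -0.17 and -0.18. That count is near its limit so close to TEA, with 12 and 12 of 14 fragments captured in DN and 11 and 12 in B from 20 to 50 kb on the lower side.

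Over all fragments between 10 kb and 1 Mb, the lower side held 80.2% and 77.1% of the signal in DN and 61.3% and 61.2% in B (exact permutation test, two-sided, p = 0.333, the smallest possible). Within this range the band from 500 kb to 1 Mb on the higher side held 2.63% and 2.74% in DN and 13.7% and 12.8% in B. The band from 20 to 50 kb on the lower side held 20.3% and 16.4% in DN and 8.34% and 5.99% in B. On the lower side from 500 kb to 1 Mb the groups overlapped, at 7.06% and 7.94% in DN and 6.53% and 9.05% in B. Of the 12 bands, 4 had both DN libraries above both B libraries, all on the lower side from 20 to 500 kb, and 6 had both below. These 6 were the lower band from 10 to 20 kb, at 5.30% and 4.12% in DN and 10.9% and 7.95% in B, and 5 of the 6 bands of the higher side, where the band from 50 to 100 kb overlapped.

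**Figure D4:**
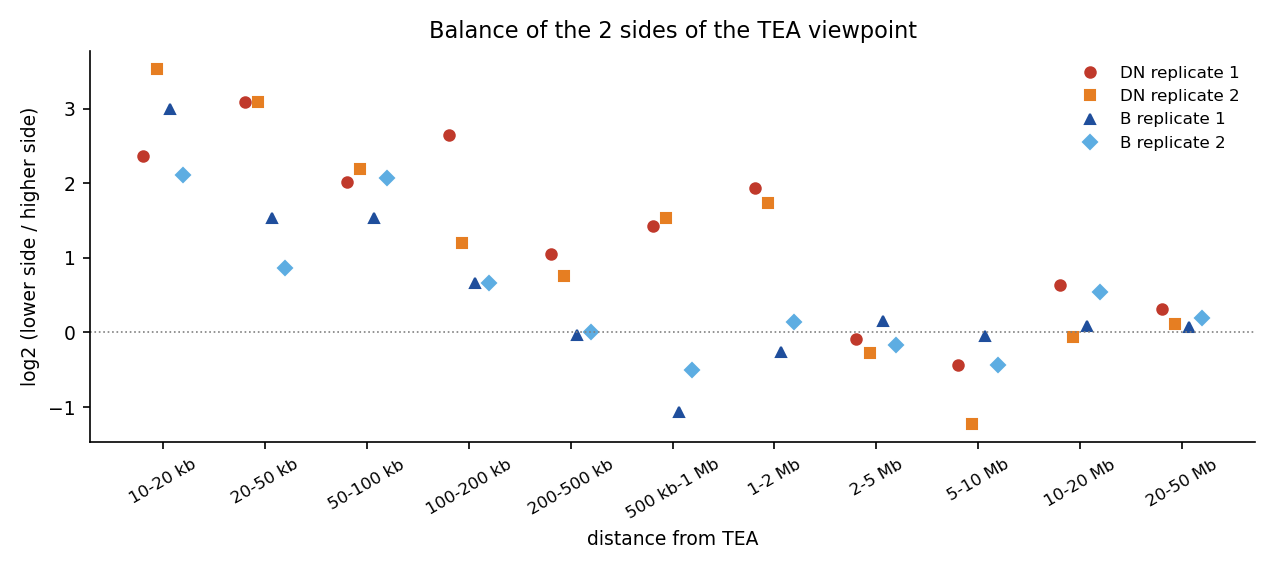
Log2 ratio of the signal on the lower-coordinate side to that on the higher-coordinate side (vertical) in 11 distance bands from TEA (horizontal), 1 point per library, with 0 for equal sides. Between 500 kb and 1 Mb and between 1 and 2 Mb the DN libraries lie from 1.43 to 1.94 and the B libraries from -1.07 to 0.14, and beyond 2 Mb the libraries overlap.

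Single fragments were read next. The fragment at chr14:54683880-54688070, 85.5 kb from TEA and bordering the INT2 fragment, had the highest share beyond 10 kb in DN, 5.57% and 8.76%, against 1.38% and 1.35% in B. It bordered the fragment at chr14:54688077-54690201, which held 1.35% and 2.35% in DN and 0.342% and 0.650% in B. The INT2 fragment itself was low, with 0.372% and 0.136% in DN and 0.162% and 0.134% in B, and the groups overlapped. The INT1 fragment overlapped too, with 0.248% and 0.644% in DN and 0.284% and 0.0909% in B. The Ed fragment held 1.17% and 0.770% in DN and 0.248% and 0.248% in B, so both DN libraries were above both B libraries. The high contact of TEA at the far end of this region therefore lay on the fragment beside the INT2 viewpoint fragment.

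The 5 highest fragments beyond 10 kb in DN included 3 more. The fragment at chr14:54752613-54762701, 13.8 kb from TEA and separated from the Ed fragment by 1 fragment at 0 in all 4 libraries, held 2.21% and 2.62% in DN and 1.79% and 1.35% in B, and it was the highest in B. The fragment at chr14:54741524-54748874, 26.3 kb away, held 2.14% and 2.45% in DN and 0.421% and 0.268% in B, and that at chr14:54722436-54726136, 47.2 kb away, 0.889% and 2.11% against 0.349% and 0.219%. In B the 5 highest shared 4 fragments with those of DN and had chr14:54706512-54721932 as the other, at 0.503% and 0.386% against 0.605% and 1.18% in DN. All 6 fragments lie between INT2 and TEA.

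Of 586 fragments between 10 kb and 1 Mb, 265 (45.2%) had both DN values above both B values and 21 (3.58%) had both below. On the lower side this was 184 of 321 above and 1 below, and on the higher side 81 of 265 above and 20 below. The lower side includes 67 repeated fragments and the higher side 0, so the lower counts are not all of separate measurements. Beyond 500 kb on the higher side 19 of 138 were above and 17 below. Both DN libraries captured and both B libraries missed 63 fragments (10.8%), and the opposite held for 5 (0.853%), all 5 on the higher side. Chosen after its values were seen, the fragment at chr14:54496116-54496722, 275 kb away on the lower side, held 0.174% and 0.0516% in DN and was at 0 in both B libraries. The fragment at chr14:55643085-55645984, 873 kb away on the higher side, was at 0 in both DN libraries and held 0.0248% and 0.0294% in B.

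In limma 0 of 488 fragments with a mean of at least 10 RPM passed (0%), and 126 had an unadjusted p under 0.05 (25.8%), of which 123 were higher in DN. The smallest adjusted p was 0.0778, and the median change over the 488 was 2.47. That median was 1.04 with the signal within 1 Mb as denominator, 1.13 with TMM factors, 1.48 with the excess over other chromosomes and 3.34 with all chromosomes. It was 1.27 with a pseudocount of 50 and 1.91 over all fragments with no filter on low values. In edgeR's quasi-likelihood test on the recovered reads, added after the data were seen, 0 of the 488 passed too and 89 had an unadjusted p under 0.05, with a smallest adjusted p of 0.206. For the fragment bordering INT2 the log2 change was 2.35 (SE 0.28, limma adjusted p 0.0778), for that at 26.3 kb 2.77 (SE 0.34, adjusted p 0.0778) and for the Ed fragment 1.94 (SE 0.36, adjusted p 0.0808). The INT2 and INT1 fragments had 0.61 (SE 0.68, adjusted p 0.570) and 1.31 (SE 0.87, adjusted p 0.391). Without the trend of variance on level 27 fragments passed as higher and 1 as lower, and with values capped at the 95th percentile of each library 60 and 1. Without DN replicate 1 or DN replicate 2 76 and 69 fragments passed as higher, and without either B replicate 0 passed.

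Fragment length went with capture. Of the 72 fragments between 10 kb and 1 Mb that no library captured, 47 were shorter than 500 bp, and their median length was 260 bp. Of the 239 captured in all 4 libraries 4 were, and their median was 3635 bp. The 63 fragments captured in DN only had a median of 1306 bp, against 2372 bp for all 586.

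**Figure D5:**
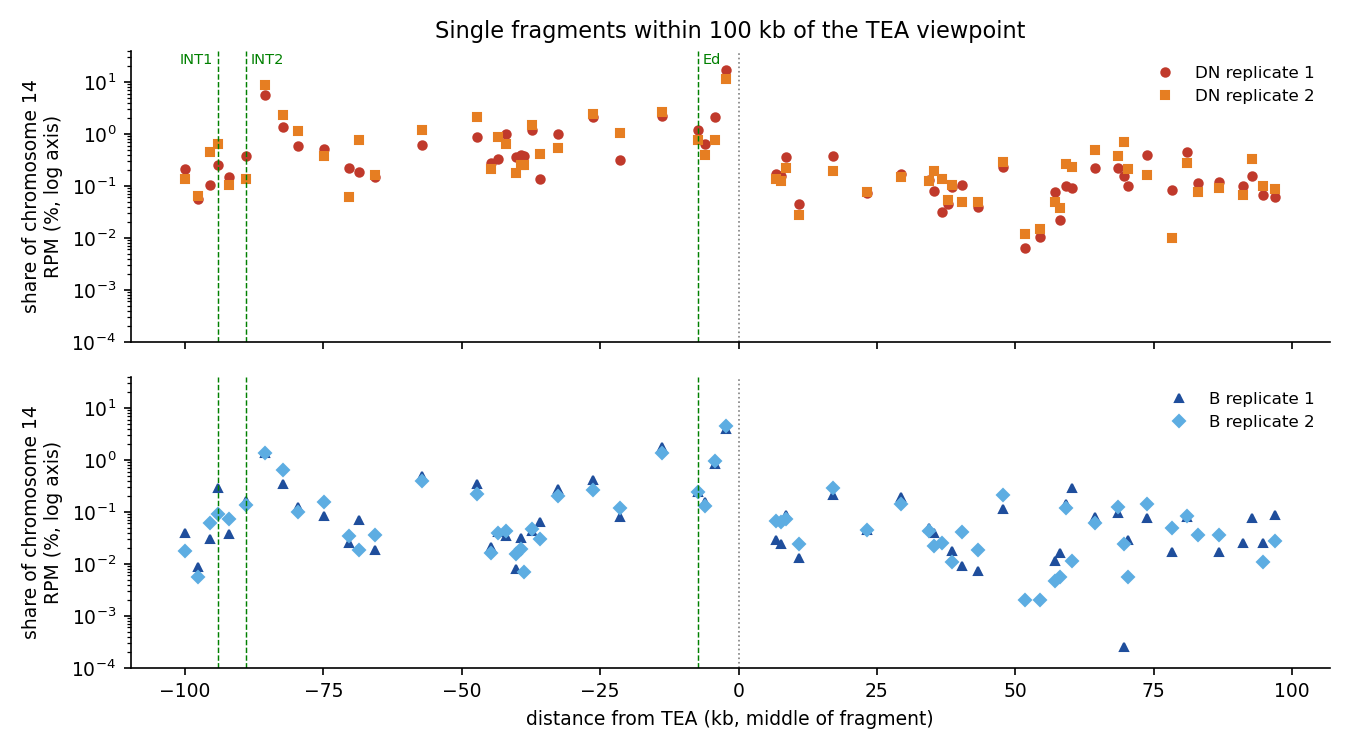
Share of the chromosome 14 signal (vertical, percent, log axis) of single HindIII fragments within 100 kb of TEA (horizontal, kb, negative toward INT2), with the DN libraries in the upper and the B libraries in the lower panel. Values of 0 are not drawn, dashed lines mark the INT1, INT2 and Ed viewpoint fragments, and the fragment beside INT2 reaches 5.57% and 8.76% in DN and 1.38% and 1.35% in B.

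A local peak was a fragment within 500 kb whose log2 level exceeded the median of its 10 neighbours on each side by at least 3 in both libraries of a cell type. In DN 2 of 292 fragments met this (0.685%), and in B 23 (7.88%), including both of DN. The 2 shared peaks were the fragment bordering INT2, with scores of 4.95 and 5.86 in DN and 5.30 and 4.84 in B, and the fragment 2.34 kb from TEA, with 6.08 and 5.74 against 5.80 and 5.99. The scores of the 2 groups overlapped in both fragments, while the shares of DN were above those of B. At a score of at least 4 there were 2 and 9 peaks.

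The 21 B peaks that were no DN peak had neighbours, which the score uses, whose medians stood at 51.8 and 45.1 RPM in B and 627 and 493 RPM in DN, as the median over the 21. Their own shares had both DN libraries above both B libraries in 10, overlapped in 9 and had both DN libraries below in 2. Among all 586 fragments from 10 kb to 1 Mb, a range that reaches farther than that of the peaks, 45.2% were above and 3.58% below. Beyond 500 kb the share above was 44.5% on the lower side and 13.8% on the higher side, and the share below 0.610% and 12.3%. The share above is therefore larger than 45.2% within 500 kb. The counts of 10 and 2 were not set against the fragments within 500 kb alone. The median fragment within 500 kb held 98.5 and 113 RPM of chromosome 14 in B and 482 and 683 RPM in DN, and 87 and 81 of the 292 fragments were at 0 in B against 39 and 38 in DN. Among the 5 highest B peaks, chr14:54370643-54377747 held 0.128% and 0.260% in B and 0.253% and 0.237% in DN, with scores of 6.76 and 5.74 in B and 2.74 and 2.76 in DN. The fragment at chr14:54909944-54923290 held 0.136% and 0.169% in B and 0.102% and 0.240% in DN, with scores of 4.25 and 6.03 against 3.43 and 2.79. The fragment at chr14:54425916-54429550 held 0.256% and 0.138% in B and 0.0677% and 0.632% in DN. In these 3 fragments the shares of the groups overlapped. Of the 2 B peaks with both DN libraries below, 1 was chr14:55162126-55166863, 393 kb away on the higher side. It was not among the 5 highest and was chosen after its values were seen. Its shares were 0.153% and 0.123% in B and 0.0539% and 0.0744% in DN (log2 change -1.11, SE 0.55, limma adjusted p 0.299). The 23 B peaks had a median length of 4027 bp, against 2443 bp for the 292.

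The limma test of the score called 37 fragments (12.7%), all lower in DN, but 34 of them were under 10 RPM in all 4 libraries and 31 were at 0 in all of them. Their score is that of their neighbours. Among the 197 fragments with a mean level of at least 100 RPM, a limit added after the data were seen, 0 passed in limma and 28 had an unadjusted p under 0.05.

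Far from TEA, beyond 2 Mb, chromosome 14 held 33.1% and 17.4% of the chromosome's signal in DN and 75.8% and 73.9% in B (exact permutation test, two-sided, p = 0.333, the smallest possible). Against the density of other autosomes in the same library this was 1.28-fold and 1.53-fold in DN and 1.23-fold and 1.23-fold in B. The difference in share was thus far larger than that in density, in which both DN libraries were above both B libraries. On the higher side the densities overlapped, at 1.17-fold and 1.51-fold against 1.17-fold and 1.14-fold. No fragment beyond 2 Mb held more than 0.936% of the far signal in a library.

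Captured fragments in 1 Mb windows beyond 2 Mb, scaled to their total, gave no call in limma. Of 120 windows 0 passed (0%) and 13 had an unadjusted p under 0.05 (10.8%). The changes ran from -0.89 to 0.51 on the log2 scale. The largest fall was in the window from 12 to 13 Mb, with 24 and 16 of 199 fragments captured in DN and 58 and 55 in B (-0.89, SE 0.20, adjusted p 0.199). The largest rise was from 26 to 27 Mb, with 71 and 46 of 219 in DN and 51 and 74 in B (0.51, SE 0.16, adjusted p 0.344). Without DN replicate 1, 12 windows passed, 4 higher and 8 lower in DN, and without DN replicate 2, 4 did, 1 higher and 3 lower. The correlation of the windows was 0.68 between the DN libraries, 0.74 between the B libraries and 0.54 to 0.70 between DN and B, over 120 windows that share fragment number and mappability.

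Ed lies 7.25 kb from TEA, and each of the 4 samples has both a TEA and an Ed library deposited under it, so each sample's TEA value was set against its own Ed value. Distances ran from the library's own viewpoint, so a band of Ed is shifted by 7.25 kb against that of TEA. Near the viewpoints the 2 bands therefore hold partly unlike fragments. In the lower band from 20 to 50 kb Ed held 7.15% and 16.3% in DN and 1.18% and 2.03% in B, with the same order of groups as TEA. The difference between the TEA and the Ed change passed in 0 of 24 bands (0%) in limma, and 3 had an unadjusted p under 0.05 (12.5%). The widest was the higher band from 20 to 50 kb, in which Ed held 1.24% and 0.687% in DN and 1.52% and 1.54% in B, where TEA was higher in DN. There the difference of the changes was 1.83 (SE 0.59, pooled over all 24 bands, limma adjusted p 0.0720). No distance band was therefore shown to be particular to TEA against Ed. Without DN replicate 1, 3 bands passed.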

How the data were processed

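Per the labels' protocols, HindIII-cut and religated chromatin was cut again with DpnII and amplified by inverse PCR. The submitters' processing notes name CASAVA, Bowtie and the build mm9. The authors deposited, per HindIII fragment with reads, its RPM, the reads scaled to the mapped reads of the library. Fragments were padded by 40 bp, per the file headers. A fragment without a row was taken as 0, and the authors' averaged files were not used here. The RPM values of a library sum to between 992692 and 1002693. In all 4 libraries 100% of values were whole multiples of the lowest value, within 0.01 read, and the number of mapped reads follows from that value. These recovered reads were used in an edgeR quasi-likelihood test of single fragments, added after the data were seen, with the chromosome 14 reads as library size.

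RPM were divided by the chromosome 14 total outside the viewpoint and 1 fragment on each side. limma 3.58.1 (R 4.3.3) compared 2 DN with 2 B libraries, two-sided, on log2(RPM of that total + 1), with a trend of variance on level except for the side balance and the difference from Ed. On this scale low values change less than they would without the pseudocount. The p-values were adjusted by Benjamini-Hochberg over all features of a comparison, with 0.05 as threshold. Fragments needed a mean of at least 10 RPM within 1 Mb. Peak scores used a pseudocount of 10. Far windows of 1 Mb, kept with at least 10 fragments, used an offset of 0.5. Slopes and total shares had exact permutation tests. Both fits were tested on simulated single fragments with independent noise only. Bands, regions and side balances were not simulated.

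Named were all bands, regions and slopes, the fragments of the other viewpoints, the 10 fragments per direction that passed (none did), the 5 highest fragments and 5 highest local peaks per cell type, and the far windows with the largest change. Members, lists and tests were chosen with earlier results of these data known. The alternatives were other denominators, edgeR 4.0.16 TMM factors, capped values, fragments counted once, no trend, other pseudocounts, filters, windows and neighbours, a replicate block and each library left out. Added after the data were seen were the denominator beyond 10 kb, the region without 10 kb beside TEA, repeated fragments divided or left out, the density over other autosomes and the peak test from 100 RPM. Figures were made with Python 3.11.15 and matplotlib 3.10.9. No sequence was printed, since no genome of build mm9 was used here.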

Additional observations from a re-analysis of the deposited data

How the results depend on the processing

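The direction of many changes turned with the denominator, which shifts all features of a library together. With all chromosomes as denominator 10 bands and 4 regions passed, all higher in DN, and 1 fragment passed. The log2 change then turned to 0.059, 0.23 and 0.33 for the lower band from 2 to 5 Mb and the higher bands from 2 to 5 and 5 to 10 Mb, to 0.90 and 1.14 for the higher bands from 500 kb to 1 Mb and 1 to 2 Mb, and to 1.05 and 0.40 for the regions from 1 to 2.2 Mb (higher) and 1.8 to 5 Mb (lower). With the signal within 1 Mb it turned to -1.01, -0.052 and -0.18 for the lower bands from 10 to 20 kb, 500 kb to 1 Mb and 1 to 2 Mb. On the higher side it turned to -1.41, -0.54, -0.91 and -0.61 from 10 to 20, 20 to 50, 100 to 200 and 200 to 500 kb, and to -0.19, -1.23 and -0.17 for the regions of the first 100 kb, from 100 kb to 1 Mb (higher) and from 1 to 1.8 Mb (lower). With the excess over other chromosomes the lower band from 10 to 20 kb and the same 4 higher bands stood at -0.49, -0.89, -0.015, -0.39 and -0.084 and the region from 100 kb to 1 Mb at -0.70. With TMM factors these were -0.79, -1.20, -0.32, -0.70, -0.39 and -1.01.

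With each captured fragment counted once 4 bands and 2 regions passed. The bands from 2 to 5 Mb on the lower side and from 500 kb to 1 Mb, 1 to 2, 2 to 5 and 5 to 10 Mb on the higher side turned to 0.021, 0.63, 0.47, 0.046 and 0.024, and the regions from 1 to 2.2 and 1.8 to 5 Mb to 0.43 and 0.10. The side balance turned to -0.0014, -0.17, -0.20 and -0.18 in the 4 bands from 10 to 200 kb, to 0.11 from 10 to 20 Mb and to -0.041 from 20 to 50 Mb, and it was -0.24 from 50 to 100 kb with capped values. The DN minus B slopes were 0.206 (near, lower side), -0.0189 (near, higher side) and -0.269 (far, lower side), against -0.264, -0.385 and -0.579 with signal. With 10 bands per decade the near slope on the higher side differed by -0.283.

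Without the trend 28 fragments and 0 local peak scores passed, and with capped values 61 fragments. The peak score test called 15 with 5 neighbours and 0 from 100 RPM. Local peaks numbered 5 in DN with 5 neighbours and 9 in B at a score of 4.

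With each library left out in turn, 0 to 21 bands, 1 to 8 regions, 0 side balances (3 to 6 at an unadjusted p under 0.05 in limma), 0 to 77 fragments, 19 to 22 peak scores, 0 to 12 far windows and 0 to 3 differences from Ed passed. The regions numbered 1 without either B replicate, the fragments 0 without either B replicate, and an arm of 1 library is assumed to vary like the other. Slope differences ranged from -0.357 to -0.171 (near, lower), -0.442 to -0.328 (near, higher), -0.737 to -0.421 (far, lower) and -0.392 to -0.123 (far, higher). The changes that turned sign, none of which passed with all libraries, ranged from -0.24 to 0.69 and -0.19 to 1.64 in the higher bands from 10 to 20 kb and 100 to 200 kb, and from -0.17 to 0.99 in the region from 100 kb to 1 Mb on the higher side. The side balances that did so ranged from -0.18 to 0.99 (10 to 20 kb), -0.38 to 0.31 (10 to 20 Mb), -0.016 to 0.19 (20 to 50 Mb) and -0.91 to 0.62 (beyond 50 Mb).

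The replicate numbers only name the samples. Deviations of same-numbered libraries over 488 fragments had a correlation of 0.0024, and with the replicate number as a block 17 bands, 5 regions, 3 side balances (without that from 100 to 200 kb), 0 fragments, 51 peak scores, 0 far windows and 0 differences from Ed passed. The alternatives gave 693 values of single bands, regions, balances and differences from Ed. Of these, 476 kept their direction and side of the threshold, 130 lost their call, 34 gained one and 53 turned sign. DN replicate 1, with 296770 chromosome 14 reads, limits what low fragments can show.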
